A study of Mus musculus with 8 samples.

Results

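The genes described here encode ligands with which myeloid cells signal to T cells, together with their closest partners on the myeloid cell itself. They are Cd80, Cd86, Icosl, Cd274, Pdcd1lg2, Cd276, Vsir, Cd40, Lgals9 and Havcr2, taken by name from the table of raw read counts, which holds all 10 of them among 55450 genes. RNA was read from its 3′ ends by sequencing of cells sorted out of orthotopic brain tumors of GL261, a mouse glioma line, in mice whose genotype is labelled WT. The groups were microglia (3 libraries), the resident macrophages of the brain, and bone marrow-derived macrophages (BMDM, 5 libraries), which enter the tumor from the blood. Both gates took F4/80 and CD11b positive, Ly6G negative cells with Ly6C low or absent, and they differed in CD45 and CD49d, both of which were low in microglia. Strain, age, sex and the number of mice behind each library are not given in the labels. P-values therefore measure the spread between these libraries, which may be technical.

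Library totals ran from 5890406 to 16659154 counts. Of 8 microglia marker genes, 6 were lower and 0 higher in BMDM, and all 6 monocyte-derived macrophage markers were higher, so the labels matched the cells. Itga4, among the latter, encodes CD49d, in which the sorting gates differed, so its difference adds no separate check. BMDM 4 and BMDM 5 stood apart from the other BMDM libraries. The ribosomal RNA-associated gene model Gm42418 took 41.2% and 48.9% of their counts, against 14.8% to 19.8% in BMDM 1 to 3 and 34.0% to 47.0% in microglia. They also had the fewest genes with a count, 13346 and 14638, against 20011 to 21778 in BMDM 1 to 3. Microglia libraries had 17572 to 22809, with microglia 3 lowest. Results are therefore also given for BMDM 1 to 3 alone. In that smaller comparison the groups differ in the Gm42418 share without overlap, so cell type and this share cannot be told apart.

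A T cell that meets antigen needs a second signal to respond, and the B7 family of membrane proteins on the presenting cell supplies it. CD80 and CD86 engage CD28 to activate T cells and CTLA-4 to restrain them, and the ICOS ligand acts on ICOS. PD-L1 (Cd274) and PD-L2 (Pdcd1lg2) bind PD-1 and limit the T cell response, B7-H3 (Cd276) and VISTA (Vsir) are further members that can inhibit T cells, and galectin-9 (Lgals9) is a ligand of TIM-3 (Havcr2). CD40 runs in the other direction. It receives CD40 ligand from helper T cells and licenses the myeloid cell to raise its own B7 molecules.

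Cd274 (chromosome 19, 29367455 to 29388095) and Pdcd1lg2 (chromosome 19, 29410919 to 29471161) lie on the same strand with 22823 bases between them, and Cd80 and Cd86 share chromosome 16 at a distance of 1789479 bases (GENCODE M21, GRCm38). No final exon of a member, the part that 3′ libraries read most, overlapped an exon of another gene. Vsir lies inside Cdh23 on the opposite strand without exon overlap, and Cdh23 had 161 counts over all libraries. Pdcd1lg2 overlaps A930007I19Rik on the opposite strand, also without exon overlap, and A930007I19Rik had 3781 counts. Cd274 and Cd276 share 511 and 416 exon bases with opposite-strand AC119228.1 (29 counts) and Gm10657 (235 counts). The part of these genes in the member counts was not tested. RefSeq promoter windows (GRCm38.p6, from 250 bases before to 50 after the annotated start) were found for 8 of the 10 genes. Capitals below mark matches, on either strand, to the interferon response element core (GAAA, any 2 bases, GAAA) and to the GC box GGGCGG, which are present in 3.44% and 35.7% of 32851 promoter windows. Shown are Cd274 (chr19:29367188-29367487, plus strand), the most studied target of interferon among them; Lgals9 (chr11:78984875-78985174, minus strand), the only 1 of the 8 windows with the interferon core; and Icosl (chr10:78069118-78069417, plus strand) and Cd276 (chr9:58554984-58555283, minus strand), whose mean mRNA levels were lower in BMDM.
Cd274: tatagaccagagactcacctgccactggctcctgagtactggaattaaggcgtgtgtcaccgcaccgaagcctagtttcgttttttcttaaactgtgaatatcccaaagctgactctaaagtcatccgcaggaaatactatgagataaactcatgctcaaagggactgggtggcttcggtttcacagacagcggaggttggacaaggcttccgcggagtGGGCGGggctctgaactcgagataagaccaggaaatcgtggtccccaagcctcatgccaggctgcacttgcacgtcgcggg
Lgals9: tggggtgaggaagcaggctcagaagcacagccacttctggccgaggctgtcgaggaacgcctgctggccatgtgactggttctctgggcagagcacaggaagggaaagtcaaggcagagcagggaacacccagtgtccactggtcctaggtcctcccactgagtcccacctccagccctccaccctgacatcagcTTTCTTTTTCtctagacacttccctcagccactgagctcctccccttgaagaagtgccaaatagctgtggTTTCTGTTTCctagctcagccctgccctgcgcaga
Icosl: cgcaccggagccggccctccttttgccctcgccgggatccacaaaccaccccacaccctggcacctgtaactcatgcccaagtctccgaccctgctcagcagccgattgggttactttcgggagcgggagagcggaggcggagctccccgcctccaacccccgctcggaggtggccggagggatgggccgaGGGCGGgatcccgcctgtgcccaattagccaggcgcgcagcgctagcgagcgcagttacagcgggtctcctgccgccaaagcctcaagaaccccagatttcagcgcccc
Cd276: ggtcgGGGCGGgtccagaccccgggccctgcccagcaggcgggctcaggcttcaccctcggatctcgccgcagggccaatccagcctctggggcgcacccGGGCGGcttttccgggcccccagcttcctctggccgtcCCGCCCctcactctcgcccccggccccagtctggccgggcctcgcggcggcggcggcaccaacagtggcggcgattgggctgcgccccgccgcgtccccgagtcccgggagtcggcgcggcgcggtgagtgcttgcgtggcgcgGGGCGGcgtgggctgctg
The Lgals9 window holds 2 interferon cores. Cd276 has 4 GC boxes, with 39 CpG dinucleotides and 78.3% G and C, and Icosl has 1 box, 26 CpG and 68.0%; the median window has 7 CpG and 52.7%. The Cd276 window follows the RefSeq start and lies wholly within the longer GENCODE gene model. Neither the interferon-gamma activated site TTCNNNGAA (8.30% of windows) nor the kappa B site (GGGA, any base, TTTCC; 0.411%) was matched in any of the 8 windows. A match describes these letters and no more.

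The comparison asks how the resident and the infiltrating macrophages of the tumor differ. With all 8 libraries no ligand gene passed the test: 0 of 10 were higher and 0 lower in BMDM, where 1.93% of all 16467 genes tested were called (1.11% higher and 0.814% lower). Calls are at a Benjamini-Hochberg adjusted p under 0.05 in the edgeR quasi-likelihood fit. All 10 passed the filter on low counts. At an unadjusted p under 0.05, 1 was higher (Cd40) and 3 lower (Cd86, Icosl and Cd276), where 13.8% of all genes reached that level (6.49% higher and 7.27% lower). For 3 of the 10 every BMDM library lay on 1 side of every microglia library, above for Cd40 and below for Cd86 and Cd276; this held for 13.0% of all genes (4.32% above and 8.66% below). DESeq2 called 1 member, Cd40, with 5.69% of its genes called. With BMDM 1 to 3 alone edgeR called Cd40 higher and Cd86 lower, with 14.5% of all genes called (6.35% higher and 8.11% lower). The median log2 fold change of the 10, BMDM minus microglia, was 0.34, beside 0.08 over all genes tested.

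**Figure D1:**
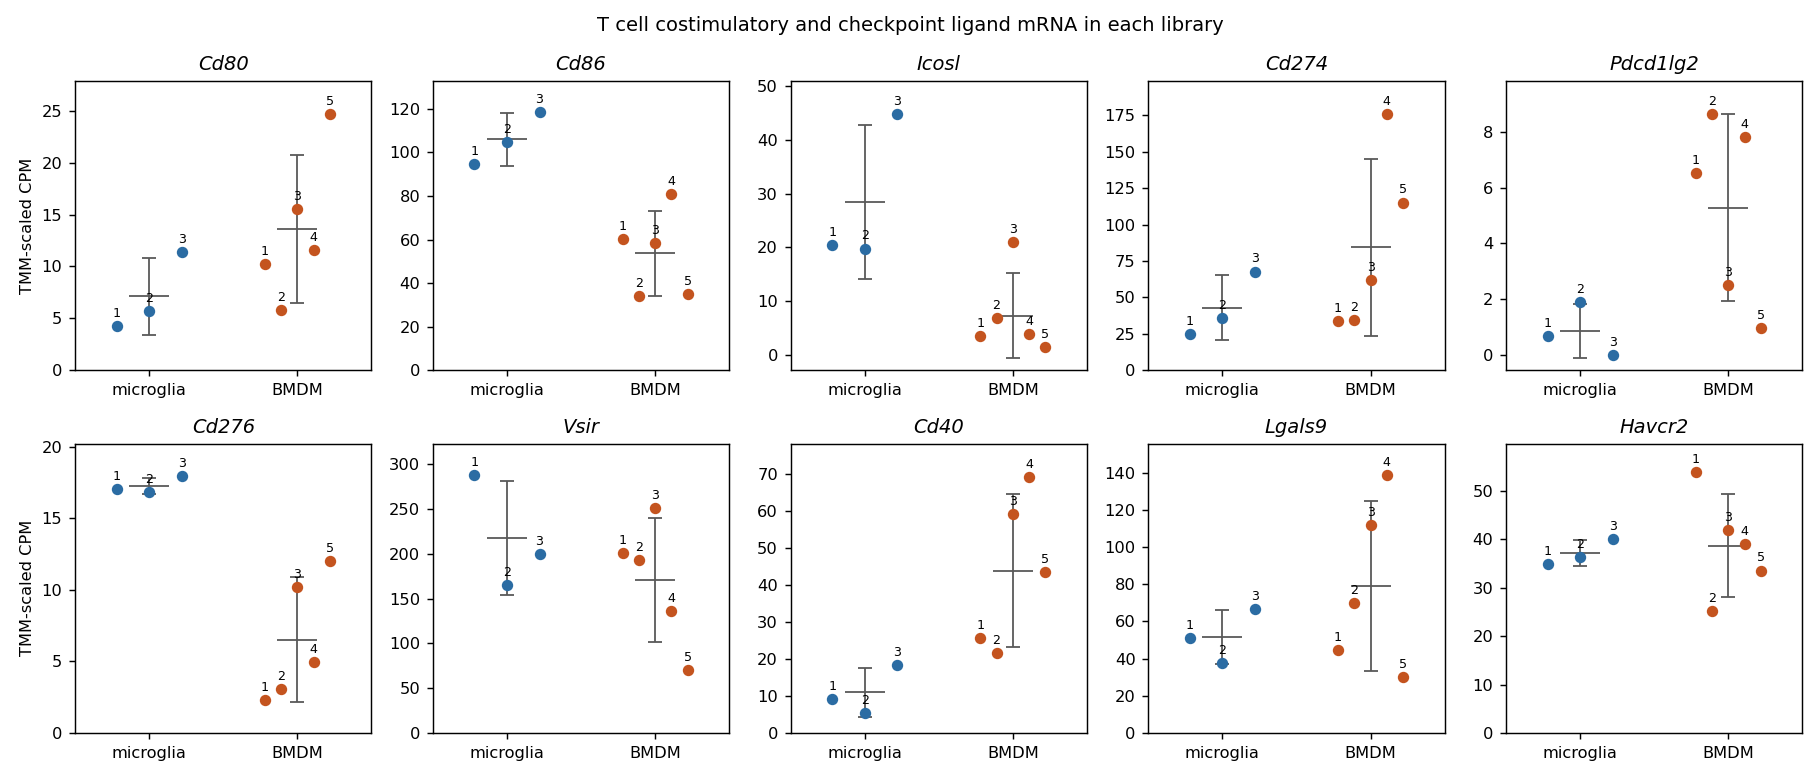
Values of each of the 10 genes in each library, in CPM after TMM scaling, with 3 microglia libraries in blue and 5 BMDM libraries in orange, numbered by replicate; bars show the mean and SD. Every BMDM library lies above every microglia library for Cd40 and below for Cd86 and Cd276, while the BMDM libraries spread over more than 5-fold for Cd274, Icosl, Pdcd1lg2 and Cd276.

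Cd40 had the lowest p of the 10 genes in the edgeR fit. In counts per 1000000 library counts (CPM), with library sizes scaled by the trimmed mean of M values (TMM), it measured 9.25, 5.33 and 18.4 in microglia 1 to 3, and 25.6, 21.7, 59.3, 69.2 and 43.7 in BMDM 1 to 5. All 5 BMDM libraries lay above all 3 microglia libraries, with the lowest BMDM value close to the highest microglia value. The means were 11.0 ± 6.68 CPM (SD, n = 3) and 43.9 ± 20.7 CPM (SD, n = 5). The log2 fold change was 2.00 (SE 0.52, 95% interval 0.88 to 3.12), with an edgeR adjusted p of 0.0709, which missed the threshold. Over the 18 alternatives the adjusted p of Cd40 ran from 0.00168 to 0.278 and the log2 fold change from 1.63 to 2.49. Cd40 was called in 9 of them, DESeq2 (adjusted p = 0.00382) and limma-voom (adjusted p = 0.0478, with 2.59% of all genes called) included. It was also called with library totals alone (1.65% of all genes called), without a filter on low counts (2.31%), with a filter of 10 CPM in 3 libraries (4.63%) and with limma-voom and sample quality weights (16.7%). Without BMDM 5 it was called at 1.99 (edgeR adjusted p = 0.0417, with 7.17% of all genes called), and with BMDM 1 to 3 alone it was at 1.72 (SE 0.50, edgeR adjusted p = 0.0409).

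The ligands of CD28 and CTLA-4 lay on opposite sides of 0. Cd86 measured 94.6, 105 and 119 CPM in microglia and 60.3, 34.1, 58.3, 80.7 and 35.1 CPM in BMDM 1 to 5, so every BMDM library was below every microglia library. The means were 106 ± 12.1 CPM (n = 3) and 53.7 ± 19.5 CPM (n = 5). The log2 fold change of Cd86 was -0.98 (SE 0.35, 95% interval -1.73 to -0.23, edgeR adjusted p = 0.203), and -1.04 (SE 0.28, edgeR adjusted p = 0.0289) with BMDM 1 to 3 alone. Cd80 was a low-count gene, with 47 to 179 counts per library. It measured 4.26, 5.73 and 11.3 CPM in microglia and 10.3, 5.79, 15.6, 11.6 and 24.7 CPM in BMDM, and the groups overlapped. Its log2 fold change was 0.94 (SE 0.62, 95% interval -0.38 to 2.25, edgeR adjusted p = 0.592). Neither gene was called by edgeR with all libraries. Limma-voom with sample quality weights, which also uses all 8, called Cd86 lower (adjusted p = 0.0146, with 16.7% of all genes called).

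The balance of CD80 to CD86 mRNA was compared within each library, as the log2 ratio of their CPM with a prior count of 2. The ratio itself depends on how well each 3′ end is captured, so only its difference between groups is read. It stood at -4.41, -4.14 and -3.36 in microglia 1 to 3 and at -2.53, -2.52, -1.89, -2.77 and -0.50 in BMDM 1 to 5. Every BMDM library had a larger Cd80 share of the pair than every microglia library. The difference in means was 1.93, from -3.97 ± 0.54 (n = 3) to -2.04 ± 0.92 (n = 5), with p = 0.0357 in a two-sided exact permutation test over libraries, the smallest this design allows. Adjusted over the 2 ratios tested it was 0.0714 and did not pass. The log2 ratio of Cd274 to Cd86 was higher in BMDM by 1.85, from -1.42 ± 0.57 (n = 3) to 0.42 ± 1.00 (n = 5), with exact permutation p = 0.0714 (also 0.0714 adjusted). For that ratio BMDM 1 (-0.83) lay just below microglia 3 (-0.81), and BMDM 4 and BMDM 5 were highest at 1.12 and 1.71.

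**Figure D2:**
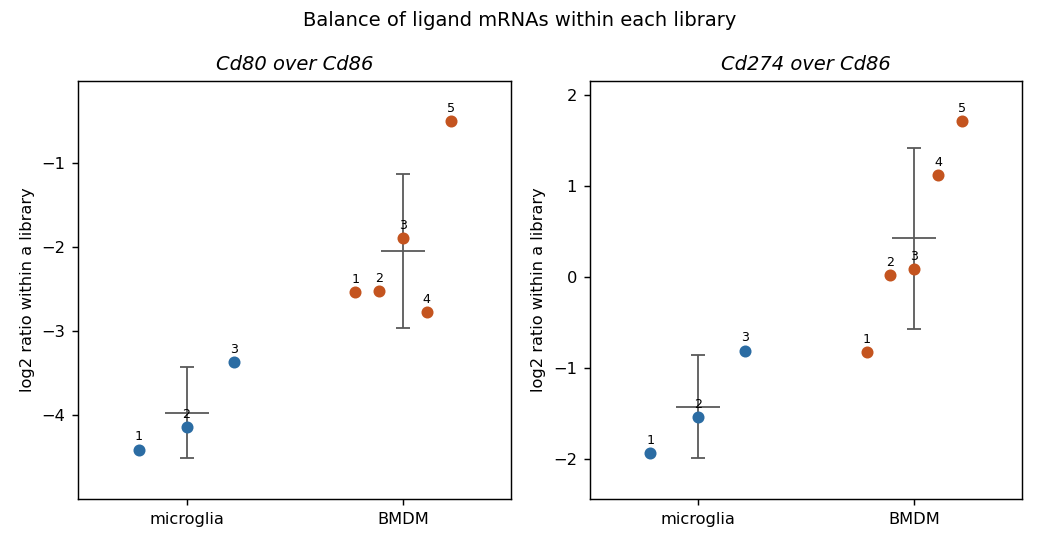
Log2 ratio of Cd80 to Cd86 (left) and of Cd274 to Cd86 (right) within each of the 3 microglia and 5 BMDM libraries, numbered by replicate, with the mean and SD. The groups do not overlap for Cd80 over Cd86, and microglia 3 (-0.81) and BMDM 1 (-0.83) nearly coincide for Cd274 over Cd86.

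Icosl, the ligand that sustains helper T cells through ICOS, measured 20.5, 19.8 and 44.9 CPM in microglia. In BMDM it measured 3.46, 6.90, 20.9, 3.82 and 1.38 CPM, the last from 10 counts. BMDM 1, 2, 4 and 5 were below all microglia libraries, whereas BMDM 3 lay among them. The log2 fold change was -1.95 (SE 0.69, 95% interval -3.42 to -0.48, edgeR adjusted p = 0.196). Without BMDM 3 it was -2.85 (edgeR adjusted p = 0.0484, with 1.11% of all genes called), a call not made by the same fit with BMDM 3 kept. With all 8 libraries, Icosl was called lower without a filter on low counts (edgeR adjusted p = 0.0347, with 2.31% of all genes called). Limma-voom with sample quality weights also called Icosl lower (adjusted p = 0.0374, with 16.7% of all genes called). The edgeR log2 fold change of Icosl was -1.41 (SE 0.58, edgeR adjusted p = 0.128) with BMDM 1 to 3 alone.

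Cd274, which encodes PD-L1, was spread more widely within BMDM than between the groups. It measured 24.7, 36.0 and 67.7 CPM in microglia, and 34.0, 34.6 and 62.2 CPM in BMDM 1 to 3. BMDM 4 and BMDM 5, the libraries with the fewest genes with a count, held 176 and 115 CPM, above every other library. The part of library quality in these values was not tested. The means were 42.8 ± 22.3 CPM (n = 3) and 84.4 ± 60.9 CPM (n = 5), and the log2 fold change was 0.98 (SE 0.55, 95% interval -0.20 to 2.16, edgeR adjusted p = 0.49). It was 0.49 without BMDM 4 and 1.38 without microglia 3, and 0.05 with BMDM 1 to 3 alone. By the root mean square difference of centred log2 CPM over the 8 libraries, the profiles most like that of Cd274 among 4812 named genes averaging 20 CPM or more were Gpsm3 (0.0988), Zfp703 (0.152) and Cnot3 (0.209). None of the 3 was called, and their log2 fold changes were 1.14, 0.98 and 0.80.

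Pdcd1lg2, which encodes PD-L2, was the least abundant of the 10 in counts. It had 13, 19 and 0 counts in microglia 1 to 3 and 49, 70, 22, 49 and 7 in BMDM 1 to 5. In CPM these were 0.683, 1.91 and 0, and 6.52, 8.62, 2.52, 7.80 and 0.967. The 0 in microglia 3 allows up to 0.334 CPM by counting error alone (3 counts). BMDM 1 to 4 lay above all microglia libraries, and BMDM 5 lay within them. The log2 fold change was 2.59 (SE 1.42, 95% interval -0.45 to 5.63, edgeR adjusted p = 0.475), an interval that spans both no difference and a very large one. Its neighbour Cd274 was highest in BMDM 4 and 5, whereas Pdcd1lg2 was highest in BMDM 2 and BMDM 4.

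Cd276, which encodes B7-H3, was the most even gene within microglia, at 17.0, 16.8 and 17.9 CPM. BMDM libraries held 2.26, 3.08, 10.2, 4.93 and 12.02 CPM, all below microglia. The means were 17.2 ± 0.587 CPM (n = 3) and 6.50 ± 4.36 CPM (n = 5). The log2 fold change was -1.41 (SE 0.62, 95% interval -2.73 to -0.09, edgeR adjusted p = 0.321), or -1.72 (edgeR adjusted p = 0.0603) with BMDM 1 to 3 alone. Limma-voom with sample quality weights called Cd276 lower (adjusted p = 0.0159, with 16.7% of all genes called). Vsir, which encodes VISTA, an inhibitory B7 relative of myeloid cells, measured 288, 165 and 199 CPM in microglia and 201, 193, 252, 137 and 70.5 CPM in BMDM. The groups overlapped, with BMDM 5 lowest, and the log2 fold change was -0.35 (SE 0.42, 95% interval -1.24 to 0.54, edgeR adjusted p = 0.82). With BMDM 1 to 3 alone it was -0.01.

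Galectin-9 and its receptor TIM-3 also overlapped between groups. Lgals9 measured 50.8, 37.5 and 66.6 CPM in microglia and 44.5, 69.8, 112, 139 and 30.1 CPM in BMDM. BMDM 2, 3 and 4 were above all microglia libraries, BMDM 1 lay among them and BMDM 5 was below all of them. The log2 fold change was 0.61 (SE 0.47, 95% interval -0.39 to 1.61, edgeR adjusted p = 0.669), and 0.31 without BMDM 4. Havcr2 measured 34.9, 36.4 and 40.2 CPM in microglia and 53.9, 25.1, 41.9, 39.0 and 33.6 CPM in BMDM. Its means of 37.1 ± 2.73 CPM (n = 3) and 38.7 ± 10.6 CPM (n = 5) nearly coincided. The log2 fold change of Havcr2 was 0.06 (SE 0.34, 95% interval -0.67 to 0.79, edgeR adjusted p = 0.974), and -0.08 without BMDM 1, so differences beyond 0.79 in size lie outside that interval.

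**Figure D3:**
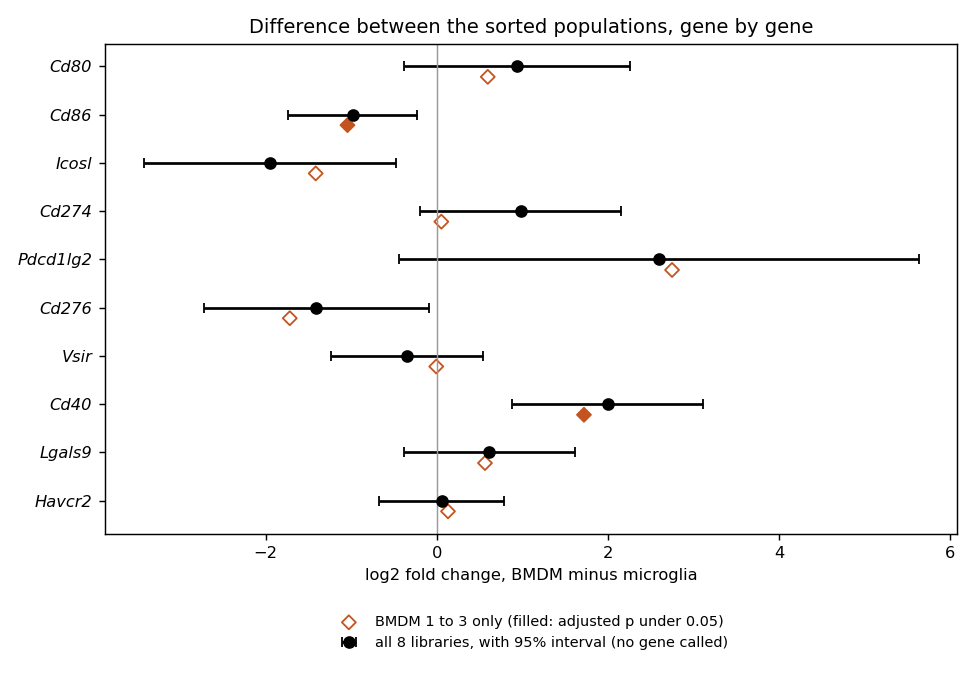
Log2 fold change of each gene, BMDM minus microglia, with all 8 libraries (black, 95% interval from edgeR's quasi-likelihood fit) and with BMDM 1 to 3 alone (orange diamonds, filled where the adjusted p was under 0.05). No gene is called in this fit of all 8 libraries. Cd40 (1.72) and Cd86 (-1.04) are filled, and Cd274 moves from 0.98 to 0.05.

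BMDM 4 was the highest BMDM library for 4 of the 10 (Cd274, Cd86, Cd40 and Lgals9), and BMDM 2 and BMDM 5 were each the lowest for 4. Microglia 3 was the highest microglia library for 8 of the 10, Vsir and Pdcd1lg2 being the exceptions. Microglia 3 also had the lowest TMM factor of the microglia libraries (0.791, against 1.15 and 0.951). BMDM 4 and BMDM 5 had factors of 0.839 and 0.791, against 1.16 to 1.29 in BMDM 1 to 3. The part of this scaling in the high values of microglia 3, BMDM 4 and BMDM 5 was not tested.

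**Figure D4:**
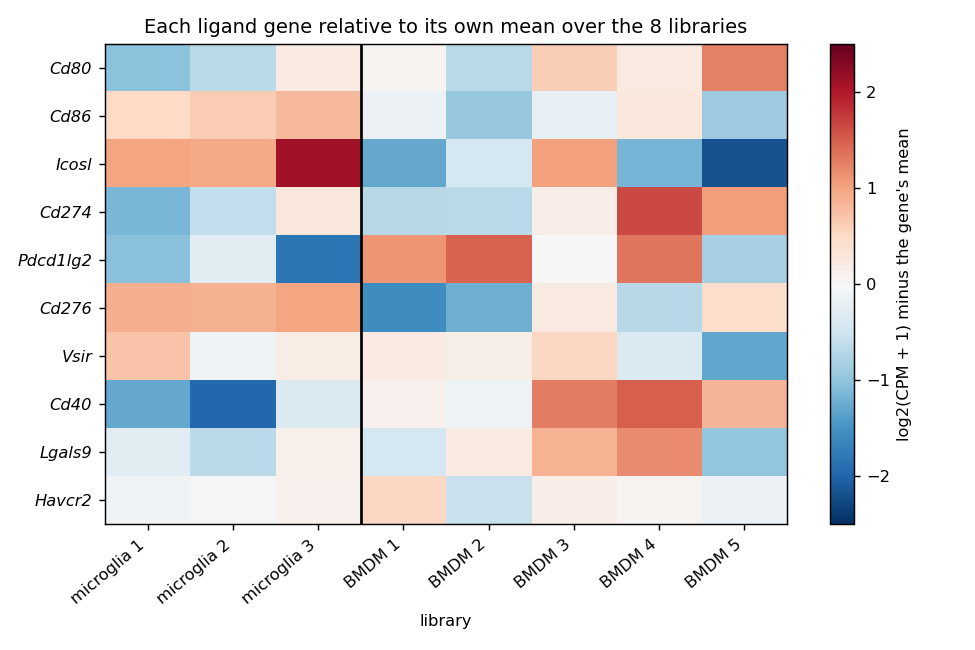
Heat map of log2(CPM + 1) of each gene minus its own mean over the 8 libraries, with microglia to the left of the line and BMDM to the right. Cd40 is above its mean in BMDM 1 and BMDM 3 to 5 and Icosl, Cd86 and Cd276 above theirs in all 3 microglia libraries, while Cd274 is highest in BMDM 4 and 5.

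Costimulatory and inhibitory receptors of T cells, with CD40 ligand, were read next, a list that also holds receptors whose ligands are not among the 10 genes. Of 13 genes listed, 8 were tested, and 1 was higher and 0 lower in BMDM, with a median log2 fold change of 1.95 over the 8. That median covers only genes that passed the filter on low counts, which genes high in BMDM alone can pass. Without the filter all 13 were tested, and the median was 1.24, with 12 positive and 1 negative. Tnfrsf9, which encodes 4-1BB, a costimulatory receptor of activated T cells, was at 2.52, 2.82 and 0.890 CPM in microglia and at 27.7, 11.2, 20.02, 54.8 and 7.74 CPM in BMDM 1 to 5. It rose by 3.53 (SE 0.73, edgeR adjusted p = 0.0215). This call was lost without any 1 microglia library, without BMDM 3 or BMDM 4, and with limma-voom (adjusted p 0.0515 to 0.149). Icos was at 5.13 to 6.73 CPM in microglia and 11.2 to 34.5 CPM in BMDM, without overlap (1.78, SE 0.53, edgeR adjusted p = 0.116). Cd28 was at 2.11 to 7.20 and 7.48 to 27.3 CPM, also without overlap (1.56, SE 0.63, edgeR adjusted p = 0.267). Pdcd1, the gene of PD-1, was at 0.101 to 4.34 CPM in microglia and 0 to 9.59 CPM in BMDM (0.16, SE 1.76, edgeR adjusted p = 0.987), and at -1.58 without BMDM 1 and -0.39 without microglia 2. DESeq2 called 4 of the 8 genes higher, with 5.69% of its genes called. With BMDM 1 to 3 alone edgeR called 5 higher, where 6.35% of all genes were called higher.

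All 12 T cell marker genes had counts. By edgeR 1 of the 10 tested was higher (Trbc2, a T cell receptor constant gene, at 4.10, SE 0.94, edgeR adjusted p = 0.0357) and 0 were lower. DESeq2 called 8 of the 10 higher, with 5.69% of its genes called, and limma-voom called 0, with 2.59% of all genes called. The 10 passed the filter on low counts, which genes high in BMDM alone can pass. The Trbc2 call was lost with limma-voom, with library totals alone, without any 1 microglia library, and without BMDM 1, BMDM 3 or BMDM 4. Trbc2 in BMDM 5 (1.80 CPM) lay among the microglia values (0.445 to 1.89 CPM). The summed level of the 12 T cell markers was 4.56 to 20.8 CPM in microglia and 31.5 to 167 CPM in BMDM, highest in BMDM 1 and BMDM 4. No T cell marker was at 0 in all libraries of a group. For the antigen-presenting cells that also carry these ligands, the 12 dendritic cell markers summed to 198 to 378 CPM in microglia and 196 to 289 CPM in BMDM. Most of each microglia sum was Fscn1, at 134 to 315 CPM in microglia and 49.6 to 83.2 CPM in BMDM. Of the 10 dendritic cell markers tested, 9 had a positive log2 fold change and 1 a negative one, with a median of 1.88. These are markers that passed the filter on low counts, which genes high in BMDM alone can pass. Without the filter all 12 were tested, and the median was 2.46, with 11 positive and 1 negative. Among the markers Ccr7, the homing receptor of migratory dendritic cells and of some T cells, was higher in BMDM (0 to 0.603 CPM against 0.276 to 40.1 CPM, log2 fold change 6.15, SE 1.39, edgeR adjusted p = 0.0346). BMDM 5 (0.276 CPM) lay among the microglia values. The Ccr7 call was lost with either form of limma-voom, without any 1 microglia library, and without BMDM 1, BMDM 3 or BMDM 4. Fscn1, an actin bundler, was lower (-1.87, SE 0.37, edgeR adjusted p = 0.0167), a call lost without microglia 1, microglia 3 or BMDM 3. Cd209a was at 0 in all microglia libraries and had 47 counts over all 8 libraries. The 6 B cell markers summed to 1.61 to 8.45 CPM and 3.69 to 11.1 CPM. Cd79a and Blk were at 0 in all microglia libraries and had only 7 and 6 counts over all 8 libraries. The 5 NK cell markers summed to 0.556 to 9.55 CPM in microglia and 4.98 to 148 CPM in BMDM, highest in BMDM 1. The 8 neutrophil markers summed to 3.00 to 8.15 CPM in microglia and 22.4 to 89.5 CPM in BMDM. Most of each BMDM sum was S100a8 (6.63 to 55.3 CPM) and S100a9 (6.90 to 29.2 CPM). Ly6g, Mpo and Elane were at 0 in all microglia libraries and had only 2, 9 and 6 counts over all 8 libraries. Tumor and glia markers (8 genes) summed to 101 to 331 CPM in microglia and 84.7 to 178 CPM in BMDM. Endothelial markers (5 genes) summed to 20.6 to 23.7 and 5.39 to 33.4 CPM, with Tek at 0 in all BMDM libraries and at 18 counts over all 8 libraries. Fibroblast and pericyte markers (5 genes) summed to 4.34 to 16.4 and 3.59 to 19.4 CPM. The part of these cells in the ligand and receptor values was not tested, and in bulk libraries fewer cells of a type and less RNA per cell cannot be told apart.

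Downstream of CD40, 1 of 15 tested genes was higher and 0 lower, with a median of -0.24. Traf1, an adapter of TNF receptors that is itself induced by NF-κB, was at 8.31, 8.45 and 11.0 CPM in microglia and 56.1, 20.9, 128, 119 and 29.0 CPM in BMDM 1 to 5. It rose by 2.93 (SE 0.60, edgeR adjusted p = 0.0201), and BMDM 3 and BMDM 4, its highest libraries, were also the highest for Cd40. A link between Traf1 and Cd40 was not tested. The Traf1 call was lost without any 1 microglia library and without BMDM 3 or BMDM 4 (adjusted p 0.0535 to 0.104). With BMDM 1 to 3 alone, Traf1 was again the 1 gene called higher, and 5 were lower, Traf3, Nfkb1, Rela, Birc3 and Tnfaip3. In that setting 6.35% of all genes were called higher and 8.11% lower, and cell type and the Gm42418 share cannot be told apart.

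Interferon-gamma acts through its receptor to induce IRF1, a transcription factor that drives PD-L1. Of 16 tested genes of this axis, 1 was higher and 0 lower by edgeR, with a median of 0.14. DESeq2 called 3 higher (Socs1, Ciita and Cxcl9), with 5.69% of its genes called. With BMDM 1 to 3 alone edgeR called the same 3 higher and 1 lower (Ifngr1), beside 6.35% and 8.11% of all genes. Ciita, the master regulator of class II histocompatibility genes, was at 5.01 to 12.7 CPM in microglia, at 58.7 to 98.3 CPM in BMDM 1 to 4 and at 11.6 CPM in BMDM 5. It rose by 2.68 (SE 0.59, edgeR adjusted p = 0.0275), a call lost in 9 of 18 alternatives, among them every library left out except BMDM 5 (adjusted p 0.0563 to 0.181). Irf1 was at 170 to 220 CPM in microglia and 170 to 817 CPM in BMDM (1.03, SE 0.48, edgeR adjusted p = 0.369). Irf1 and Cd274 were both highest in BMDM 4. Irf1 was next highest in BMDM 3 (474 CPM), and Cd274 in BMDM 5 (115 CPM). A link between them was not tested.

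Among 8 genes listed for PD-L1 protein stability and turnover, 0 were higher and 2 lower in BMDM, with a median of -0.44. The action of each on PD-L1 protein was not tested here. Cmtm6, whose product keeps PD-L1 at the cell surface and away from lysosomes, was at 120, 92.0 and 317 CPM in microglia and 29.2, 31.6, 29.2, 69.7 and 58.6 CPM in BMDM. The groups did not overlap, and the fall was 2.01 on the log2 scale (log2 fold change -2.01, SE 0.45, edgeR adjusted p = 0.031), or -1.37 without microglia 3 (adjusted p = 0.229). The Cmtm6 call was also lost without BMDM 1, 2 or 3 (adjusted p 0.0816 to 0.105) and held with DESeq2. Cd81, a tetraspanin of the plasma membrane, was at 251 to 467 CPM in microglia and 23.2 to 143 CPM in BMDM, without overlap (-1.99, SE 0.48, edgeR adjusted p = 0.0463). That call was lost in 11 of 18 alternatives (adjusted p 0.0587 to 0.188).

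**Figure D5:**
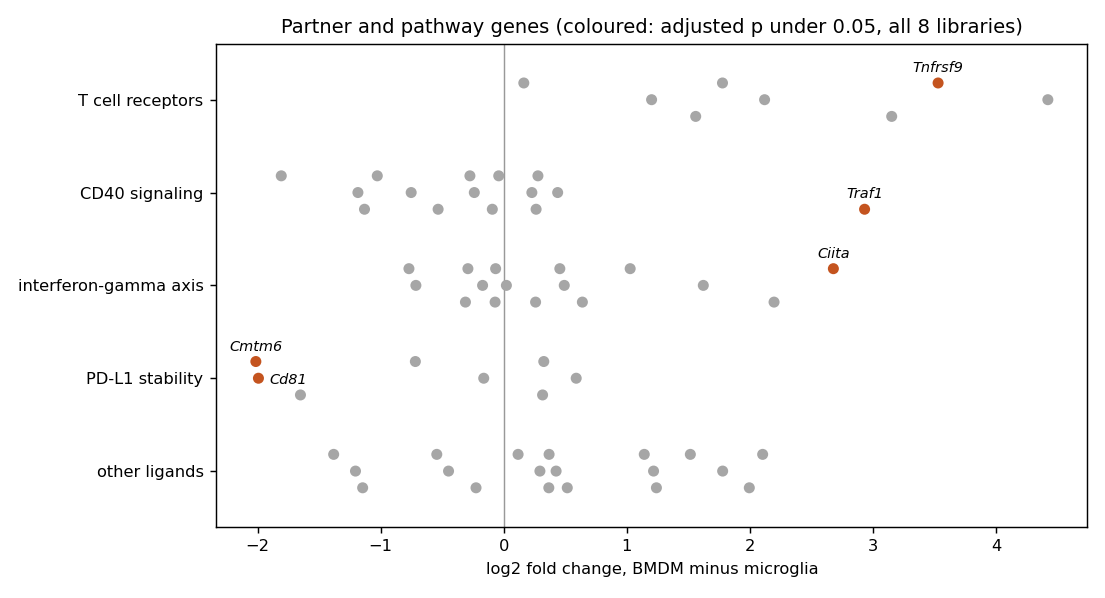
Log2 fold change, BMDM minus microglia, of each tested gene in 5 lists of partner and pathway genes, with all 8 libraries; each point is 1 gene, and coloured, named points had an edgeR adjusted p under 0.05. Tnfrsf9, Traf1 and Ciita were higher and Cmtm6 and Cd81 lower in BMDM, and no gene of the other ligands was called.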

How the data were processed

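Total RNA from sorted microglia and BMDM was made into QuantSeq 3′ FWD libraries and sequenced on a NextSeq500, per the labels' protocols. Raw counts of reads per gene were deposited as 1 table. For its making, the submitters' processing notes list the mm10 build, featureCounts, STAR, cutadapt, FastQC and DESeq2. Versions, the strand setting and the treatment of reads that match several places are not given in the sources used here. All 55450 identifiers and names matched GENCODE M21 (GRCm38).

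The deposited counts went into edgeR 4.0.16 under R 4.3.3 (filterByExpr with minimum count 10 and minimum total count 15, TMM factors, robust quasi-likelihood fit), BMDM minus microglia, adjusted over all 16467 genes tested. Standard errors derive from the F statistic, and log2 CPM used a prior count of 2. CPM values are not compared between genes. Totals of 5890406 to 16659154 counts bear on the precision; the 95% intervals include the spread between libraries, and floors cover counting error only. No pair of libraries of a group was alike within sampling noise (lowest chi-square per degree of freedom 21.1).

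Alternatives used DESeq2 1.42.0 and limma-voom (limma 3.58.1), other scalings and filters, and libraries left out. Of the pathway lists, called genes (up to 4 per direction) and selected partners of a member were named; 1 partner gene is not reported here. Likeness to Cd274 was ranked over named genes only. Members, lists and tests were chosen with earlier results of these data known. The fits were tested on simulated counts.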

Additional observations from a re-analysis of the deposited data

Results flagged for a closer look

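Icosl in BMDM 3, at 20.9 CPM, lay far above the other 4 BMDM libraries (1.38 to 6.90 CPM), with a gap of 0.718 of the whole range against a limit of 0.71 for 5 samples. Pdcd1 in BMDM 1, at 9.59 CPM, lay far above the other BMDM libraries (0 to 2.40 CPM), with a gap of 0.749 of the range. These were 2 of 23 sets of 5 BMDM values examined, and chance flags about 1 in 20 of them.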

How the results depend on the processing

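The number of all genes called (317) was 721 without a filter on low counts, 914 with DESeq2, 2748 with limma-voom and sample quality weights, 2340 with BMDM 1 to 3 alone and 104 to 1138 with 1 library left out. It fell to 118, 164 and 104 without microglia 1, 2 and 3 and 178 without BMDM 3, and rose to 1138 without BMDM 5. Of the 10 ligand genes, 1 (Cd40) was called higher with library totals alone, no filter, 10 CPM in 3 libraries, DESeq2, either form of limma-voom and BMDM 1 to 3 alone, and 0 to 1 with 1 library left out. Called lower were 1 without a filter (Icosl), 3 with quality weights (Cd86, Icosl and Cd276), 1 with BMDM 1 to 3 alone (Cd86) and 0 to 1 with 1 library left out. The Cd80 to Cd86 ratio kept its direction, at 1.54 to 2.23 with 1 library left out and 1.66 with BMDM 1 to 3 alone, where the smallest exact permutation p is 0.0571 to 0.1 and no call is possible. The Cd274 to Cd86 ratio was never past 0.05. The sign turned for Vsir (0.029 under the replicate block), Havcr2 (-0.081 without BMDM 1, otherwise up to 0.19 with 1 library left out) and Pdcd1 (-1.03 with limma-voom, -0.39 without microglia 2 and -1.58 without BMDM 1, with up to 1.01 for other libraries left out); the cause was not tested. Library totals alone put the median of all genes at 0.20, against 0.08 with TMM.

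Replicate numbers 1 to 3 occur in both groups. Deviations of same-numbered libraries correlated at 0.137, 0.0903 and 0.238, each the largest for both libraries, a hint from the data and not from the design. The second pair was under the limit of 0.1 set here for pairing. The labels do not state that the numbers pair libraries, so the main fit used no block. Whether the libraries are paired was not settled. With the replicate block, over BMDM 1 to 3, 3244 of 16182 genes were called, with 2 ligand genes higher (Cd40 and Pdcd1lg2) and 3 lower (Cd86, Icosl and Cd276). Low counts limit Pdcd1lg2 most, and the 10 CPM filter removed it.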

Other observations

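Other ligands and myeloid receptors that act on T cells were listed as well, 28 genes of which 19 were tested. By edgeR's quasi-likelihood test 0 were higher and 0 lower in BMDM with all libraries, with a median log2 fold change of 0.37. At an unadjusted p under 0.05 there were 3 higher and 1 lower, beside 6.49% and 7.27% of all genes. DESeq2 called 2 higher, with 5.69% of its genes called. With BMDM 1 to 3 alone edgeR called 3 higher, where 6.35% of all genes were called higher. The genes named here were chosen after their values were seen. Lgals3, which encodes galectin-3, was at 148 to 334 CPM in microglia and 543 to 1179 CPM in BMDM, without overlap (1.78, SE 0.45, edgeR adjusted p = 0.0601). Pilra, an inhibitory paired receptor, was at 9.05 to 18.4 CPM in microglia and 15.6 to 72.7 CPM in BMDM, with BMDM 5 among the microglia values (1.99, SE 0.49, edgeR adjusted p = 0.053). Nectin2, a ligand of TIGIT and CD226, was at 18.7 to 21.4 CPM in microglia and 3.18 to 13.2 CPM in BMDM (-1.38, SE 0.55, edgeR adjusted p = 0.263). Vtcn1, Vsig4 and Tnfsf4 had 0 counts in all 8 libraries, which allows up to 0.158 to 0.478 CPM per library (3 counts, counting error only).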
